A study of Mus musculus with 2 samples.

Results

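The genes described here encode 10 proteins, other than gel-forming mucins, that colonic goblet cells make for the mucus layer or release with it: Fcgbp, Clca1, Zg16, Agr2, Spink4, Retnlb, Ang4, Mptx1, Sval1 and Klk1. They were taken by symbol from the 31053 genes in the deposited matrices, and all 10 were found in both libraries. The cells came from isolated colonic crypts of 4-week-old C57BL/6 mice and were sequenced with the 10x Genomics single-cell RNA protocol. Control mice had the genotype M14(f/f), with both copies of the gene flanked by loxP sites, and the other mice were M14(f/f);Villin-Cre and are called Mettl14_cKO. M14 was read as Mettl14, a subunit of the enzyme that writes N6-methyladenosine on RNA. Both genotypes therefore carried the floxed alleles, and Villin-Cre is active in gut epithelial cells, so T cells are not its target. Cells of 3 mice were pooled per genotype into 1 library each. With 1 library per genotype no test was possible, and all intervals below are 95% intervals for counting error only, without the spread between mice.

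Goblet cells are secretory cells that fill their granules with the mucin Muc2 and discharge them onto the epithelium. The mucin takes most of the granule, but other proteins travel with it. Fcgbp and Clca1 are a structural protein and a metalloprotease of the mucus gel. Zg16 is a lectin that binds the cell wall of Gram-positive bacteria, Retnlb (RELM-beta) and Ang4 are antibacterial proteins, and Agr2 is a protein disulfide isomerase of the endoplasmic reticulum needed for mucin folding. Spink4 belongs to the Kazal-type protease inhibitors, Klk1 is tissue kallikrein, a serine protease, and Mptx1 is a pentraxin of the intestinal mucosa.

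The control library held 10181 cell barcodes with 111239295 unique molecular identifiers (UMIs, each a counted RNA molecule), and the Mettl14_cKO library 9225 barcodes with 89729527. After filtering, 9077 and 7072 cells were kept, with medians of 10037 and 6253.5 UMIs. The libraries shared 15 barcodes among the kept cells. Mettl14 itself was counted at 4.63 CPM (UMIs per 1000000 UMIs of the class, from 180 UMIs) in control and 3.69 CPM (109 UMIs) in Mettl14_cKO goblet-like cells, and at 4.77 and 5.004 CPM over all barcodes of the libraries. The sources used here do not give where the deleted part lies relative to the counted reads, so these values do not check the label. Xist stood at 0.0629 CPM in control cells and 338 CPM in Mettl14_cKO cells, and 4 genes of the Y chromosome at 104 and 0.0780 CPM, so that genotype and sex of the mice cannot be told apart.

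Goblet-like cells were found by clustering with the 10 genes left out and by 13 other goblet markers, among them Muc2, Tff3, Spdef, Atoh1 and Foxa3. The class held 3379 control cells (37.2% of the kept cells, median 10771 UMIs) and 2244 Mettl14_cKO cells (31.7%, median 8559 UMIs). Different clusters held most of it in each library. Control cells made up clusters 0, 4, 14 and 15, with 1340, 903, 568 and 563 cells, and Mettl14_cKO cells clusters 1 and 3, with 1139 and 1013 cells. Between 11 and 13 of the 13 markers were raised in each of these clusters. A further 92 Mettl14_cKO cells lay in clusters made mostly of control cells. Their values are given apart where they matter.

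In goblet-like cells the 10 genes together held 7.23% of control and 4.85% of Mettl14_cKO UMIs. Agr2 was the most counted gene of the class in both libraries and differed little between them. Fcgbp and Retnlb were about 3 times higher in the Mettl14_cKO library. Spink4, Ang4, Sval1, Clca1 and Klk1 were between 2.92 and 6.22 times lower, and Mptx1 was 187 times lower. A difference of at least 2-fold, on the scale of log2(CPM + 1), was reached by 2 genes upwards and by 6 downwards. Among the 7307 genes with at least 10 CPM in either library, 6.01% were at least 2-fold higher and 6.25% at least 2-fold lower. The median log2 ratio was -1.71 over the 10 genes and -0.10 over all 7307.

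**Figure D1:**
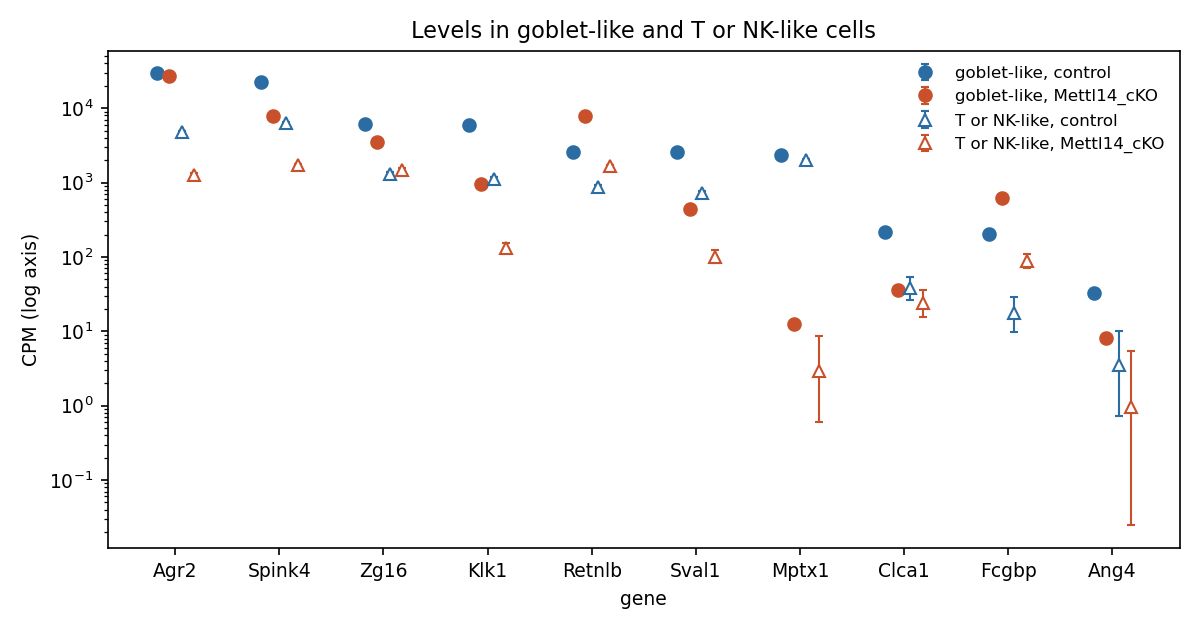
Level of each gene in CPM on a log axis, in goblet-like cells (filled circles) and T or NK-like cells (open triangles) of the control (blue) and Mettl14_cKO (orange) libraries. Bars are exact 95% Poisson intervals for counting error, hidden by the symbol where narrow. Mptx1 has the widest gap between the goblet-like values, 2359 against 12.6 CPM, and in the control its T or NK-like level of 1984 CPM lies close to the goblet-like one.

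Of the proteins of the mucus gel, Fcgbp stood at 202 CPM in control and 618 CPM in Mettl14_cKO goblet-like cells, 3.06-fold higher (95% interval 2.98 to 3.14). The metalloprotease Clca1 went the other way, with 215 CPM in control and 36.4 CPM in Mettl14_cKO goblet-like cells, 5.90-fold lower (5.54 to 6.30). The lectin Zg16 was counted at 6097 and 3518 CPM, 1.73-fold lower in the Mettl14_cKO library (1.72 to 1.75). The 3 genes thus differed neither in 1 direction nor to a like extent. The pooled values of all of them rested on few cells in the control: with cells thinned to 1500 UMIs, the 10% of control goblet-like cells with most Zg16 UMIs held 98.7% of them, and the corresponding share for Fcgbp was 96.5%. In the Mettl14_cKO library the shares were 96.1% for Zg16 and 62.2% for Fcgbp. At that depth 11.7% of control and 43.0% of Mettl14_cKO goblet-like cells had an Fcgbp UMI. The control share of Fcgbp thus largely follows from how few cells had a UMI, and no difference in spread was read from these shares.

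Agr2, which folds mucins, was counted at 29418 CPM in control and 27333 CPM in Mettl14_cKO goblet-like cells, 1.08-fold lower. It ranked first among all genes by UMIs in both. The values pool unlike clusters, since Agr2 stood at 8217 CPM in cluster 1 and 31108 CPM in cluster 3 of the Mettl14_cKO library, whose median depths were 3173 and 20942 UMIs per cell. In the control clusters it ranged from 20716 to 34769 CPM.

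Of the antibacterial proteins, Retnlb was counted at 2609 CPM in control and 7811 CPM in Mettl14_cKO goblet-like cells, 2.99-fold higher (2.97 to 3.02). It moved from rank 65 to rank 5 by UMIs, an order that is not scaled by gene length. Ang4 was rare, with 1254 UMIs (32.3 CPM) in control and 238 UMIs (8.06 CPM) in Mettl14_cKO goblet-like cells, 4.01-fold lower (3.49 to 4.62). The pair of antibacterial genes therefore differed in opposite directions. Retnlb in both Mettl14_cKO clusters, at 4267 and 8259 CPM, lay above its level in all 4 control clusters, which ranged from 929 to 3720 CPM. Of all 7307 genes, 17.7% showed such a separation upwards.

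The protease inhibitor Spink4 was counted at 22831 CPM in control and 7808 CPM in Mettl14_cKO goblet-like cells, 2.92-fold lower (2.91 to 2.94). The protease Klk1 stood at 5939 and 955 CPM, 6.22-fold lower (6.14 to 6.30). Sval1, named for its likeness to a seminal vesicle antigen, stood at 2550 and 446 CPM, 5.71-fold lower (5.61 to 5.82). Spink4, Klk1, Ang4 and Mptx1 were lower in both Mettl14_cKO clusters than in all 4 control clusters, a separation that 23.4% of the 7307 genes showed downwards. For Ang4 this was close to a tie, at 7.44 and 8.16 CPM against 8.20 CPM in the lowest control cluster, and no separation was read. Klk1 ranged from 4825 to 6896 CPM over the control clusters and stood at 566 and 799 CPM in the Mettl14_cKO clusters.

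Mptx1 was counted at 2359 CPM (91645 UMIs) in control goblet-like cells and at 12.6 CPM (373 UMIs) in Mettl14_cKO goblet-like cells, 187-fold lower (169 to 207). By UMIs it stood at rank 71 in control and 5978 in Mettl14_cKO goblet-like cells. At least 10 Mptx1 UMIs were found in 524 of the 3379 control goblet-like cells and in 6 of the 2244 Mettl14_cKO goblet-like cells. Most Mptx1 UMIs of the Mettl14_cKO library lay elsewhere: 1734 of them (74.6%) were in unnamed epithelial clusters, where 29 of 1813 cells had at least 10. Another 184 UMIs came from 1 barcode of the B or plasma-like cluster.

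The promoters of Mptx1, Sval1 and Klk1, which were lower in the Mettl14_cKO library, and of Fcgbp, which was higher, are shown to compare genes that differed in opposite directions. Each runs from 250 bases before to 50 bases after the RefSeq start site (GRCm38.p6, plus strand). They lie at chr1:174330268-174330567 (Mptx1), chr6:41951378-41951677 (Sval1), chr7:44225110-44225409 (Klk1) and chr7:28070986-28071285 (Fcgbp). Capitals mark the E-box CAGCTG, the kind of site that Atoh1-type factors bind.
Mptx1: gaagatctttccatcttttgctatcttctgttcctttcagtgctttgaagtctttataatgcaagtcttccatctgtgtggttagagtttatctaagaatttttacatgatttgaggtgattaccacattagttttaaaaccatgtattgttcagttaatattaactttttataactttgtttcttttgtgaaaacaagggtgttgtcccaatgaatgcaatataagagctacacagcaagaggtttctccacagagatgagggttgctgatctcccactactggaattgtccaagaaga
Sval1: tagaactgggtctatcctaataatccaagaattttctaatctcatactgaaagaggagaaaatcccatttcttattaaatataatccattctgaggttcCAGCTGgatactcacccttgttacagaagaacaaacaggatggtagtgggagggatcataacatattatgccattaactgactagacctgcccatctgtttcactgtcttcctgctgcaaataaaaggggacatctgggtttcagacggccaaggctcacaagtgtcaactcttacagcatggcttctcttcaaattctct
Klk1: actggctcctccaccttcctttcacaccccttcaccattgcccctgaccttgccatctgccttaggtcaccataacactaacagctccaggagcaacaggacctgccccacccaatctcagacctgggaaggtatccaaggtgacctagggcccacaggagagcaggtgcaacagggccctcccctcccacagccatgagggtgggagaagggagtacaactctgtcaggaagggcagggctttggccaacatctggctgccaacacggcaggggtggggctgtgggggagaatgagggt
Fcgbp: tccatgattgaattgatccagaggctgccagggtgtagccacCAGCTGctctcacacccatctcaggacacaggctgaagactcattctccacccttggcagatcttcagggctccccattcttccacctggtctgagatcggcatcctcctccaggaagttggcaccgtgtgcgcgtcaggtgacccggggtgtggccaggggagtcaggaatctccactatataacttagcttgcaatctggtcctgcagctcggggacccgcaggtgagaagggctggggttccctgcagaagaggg
The E-box was found in Sval1, from base -151 relative to the start site, and in Fcgbp, from base -208. It was found in 16.3% of all 32851 promoters in the table. The Mptx1 promoter held no E-box and 2 matches to TATAAA on the reverse strand, a motif that 13.6% of promoters held on either strand. Its GC content was 35.0%, against 40.7% in Sval1, 58.3% in Fcgbp and 60% in Klk1. Promoters were found for 6 of the 10 genes, the other 2 being Agr2 and Ang4, and not for Clca1, Zg16, Spink4 and Retnlb. On both strands of all 6, no match was found to the forkhead motifs TGTTTAC or TGTTTGC (3.65% and 5.07% of promoters), to CGGAAG (16.9%), ACGTG (19.6%) or a STAT-type motif with a longer spacer (6.95%). The STAT-type motif TTCNNNGAA, held by 8.30% of promoters, matched in Ang4. The SPDEF-type core ATCCT, held by 41.0%, matched in Sval1, Fcgbp and Agr2. The E-box thus occurred in a gene that was lower and in one that was higher.

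Within the control library the 10 genes fell into unlike patterns over the goblet-like clusters. All of the genes except Agr2 were highest in cluster 15, whose leading genes included Spink1, Reg4, Best2, Tff3, Rep15 and Capn9. The spread was widest for Zg16, Clca1, Mptx1, Sval1 and Fcgbp, at least 55.2-fold from the highest to the lowest cluster. For the others it was at most 6.06-fold. Zg16 stood at 43388 CPM in cluster 15 and at 195 CPM in cluster 0. Mptx1 stood at 13910 CPM in cluster 15, 2533 CPM in cluster 14, 155 CPM in cluster 4 and 82.0 CPM in cluster 0. Sval1 followed the same order for the upper clusters, with 12134 CPM in cluster 15 and 4604 CPM in cluster 14, against 195 and 186 CPM in clusters 4 and 0. Clca1 reached 1515 CPM in cluster 15 and Fcgbp 1270 CPM, and neither exceeded 76.5 CPM in the other 3. These clusters were formed from other genes of the same cells, so the contrasts are descriptions.

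Klk1, Agr2 and Spink4 were close to even over the same clusters. Spink4 ranged from 19252 CPM in cluster 0 to 33675 CPM in cluster 15. Retnlb was lowest in cluster 14, at 929 CPM, where Sval1 and Mptx1 were second highest. It stood at 2946 CPM in cluster 0 and was highest in cluster 15, at 3720 CPM. Ang4 lay between 8.20 and 49.7 CPM. In all, the 10 genes held 13.7% of the UMIs of cluster 15 and 6.05% to 6.75% of those of the other control clusters.

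At this clustering no Mettl14_cKO cluster shared 4 or more of the 10 leading genes of cluster 15, which held 6 cells of that library. Zg16 stood at 3685 CPM in cluster 1 and 3788 CPM in cluster 3, between the highest and the lower control clusters. Fcgbp stood at 1400 CPM in cluster 1, a level like that of control cluster 15, and at 508 CPM in cluster 3. Clca1 stood at 157 and 14.98 CPM, and Sval1 at 589 and 412 CPM, above its level in control clusters 0 and 4. Mptx1 was at 12.7 CPM in cluster 1 and 13.1 CPM in cluster 3, below every control cluster. For Fcgbp, Clca1, Zg16, Agr2 and Sval1 the ranges of the clusters of both libraries overlapped.

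Other clusterings did set such Mettl14_cKO cells apart. At the finer resolution of 2, a goblet-like cluster of 293 Mettl14_cKO and 3 control cells shared 7 of those leading genes, among them Spink1, Reg4, Best2, Tff3 and Rep15. The larger of 2 control clusters that shared at least 4 of them held 449 control cells and shared 9. A like Mettl14_cKO cluster formed with the strict cell filter (255 cells) and with the 10 genes kept among the variable genes (221 cells). Of the 293 cells, 159 lay in the unnamed cluster 17 of the main clustering, 68 in cluster 3 and 51 in cluster 1. The comparison of these clusters was chosen after the data were seen, and their cells were deeper in the Mettl14_cKO library, with medians of 19442 and 9231 UMIs.

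Between the 449 control and 293 Mettl14_cKO cells Zg16 stood at 45953 CPM in control and 22311 CPM in Mettl14_cKO cells, and Sval1 at 15493 and 4712 CPM. Both were thus far above the Mettl14_cKO goblet-like class as a whole. Fcgbp stood at 1212 and 1539 CPM, close to each other, and Clca1 at 1614 and 226 CPM. Klk1 stood at 6848 and 924 CPM. Mptx1 stood at 17785 CPM in control and 191 CPM in Mettl14_cKO cells, and Retnlb at 260 and 6067 CPM. The smaller control cluster, with 131 cells and 7 shared genes, differed from the larger: Retnlb stood at 13851 CPM there, above the Mettl14_cKO cells, Sval1 at 1429 CPM, below them, Zg16 at 31467 CPM and Mptx1 at 805 CPM. At this resolution Clca1, Zg16, Spink4, Ang4, Mptx1 and Klk1 (6929 CPM) were thus lower in the Mettl14_cKO cells than in both control clusters. Fcgbp was higher than in both, and Agr2 lay between them. The share of all genes that lay below both control clusters was not computed. The direction for Retnlb and Sval1 turned with the control cluster. In the other such Mettl14_cKO clusters Zg16 stood at 17461 and 23831 CPM and Mptx1 at 251 and 292 CPM. The smaller control clusters of those settings held Mptx1 at 76.4 and 62.2 CPM, below the Mettl14_cKO cells. The larger ones held it at 18044 and 10288 CPM. There the direction for Mptx1 also turned with the control cluster, while Klk1 stayed lower than in each of them.

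**Figure D2:**
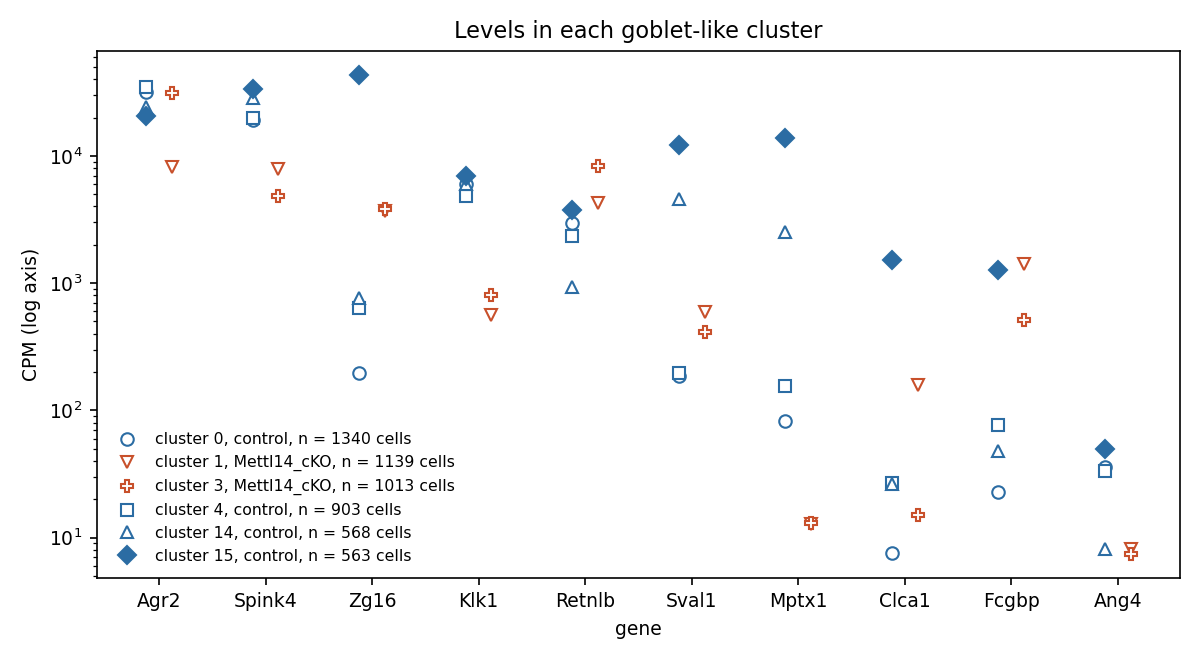
Level of each gene in CPM on a log axis in every goblet-like cluster with at least 50 cells of a library (control blue, Mettl14_cKO orange). Each symbol is 1 cluster, and the filled diamond is control cluster 15. Control values of Zg16, Sval1, Mptx1, Clca1 and Fcgbp spread widely with cluster 15 on top, while Klk1 spans 4825 to 6896 CPM in the control and lies at 566 and 799 CPM in the Mettl14_cKO clusters.

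Clusters 0, 4 and 14 held cells of both libraries, 2811 control and 86 Mettl14_cKO cells, and gave another picture for some of the genes. Spink4 stood at 21174 CPM in control and 40643 CPM in Mettl14_cKO cells of these clusters, 1.92-fold higher, against 2.92-fold lower in the whole class. Fcgbp was 1.95-fold lower there (1.41 to 2.77), at 37.0 and 19.0 CPM, the latter from 38 UMIs. Klk1 was 1.62-fold lower, at 5793 and 3565 CPM. Retnlb stayed higher, at 2439 and 11107 CPM, and Mptx1 stayed lower, at 591 and 2.0 CPM, the latter from 4 UMIs. Among the 7143 genes eligible in these clusters, 0.854% were at least 2-fold higher and 2.66% at least 2-fold lower.

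With the 6 cells of cluster 15, these 92 Mettl14_cKO cells had a median of 21042 UMIs, 204 CPM of Xist and 2.44 CPM of the 4 genes of the Y chromosome, against 280 and 0.0364 CPM in the other Mettl14_cKO goblet-like cells and 0.0515 and 114 CPM in the control goblet-like cells. None of them shared a barcode with the control library. They carried 3 Mettl14 UMIs among 2050450. They held 83756 of the 230681 Spink4 UMIs and 7334 of the 28219 Klk1 UMIs of the Mettl14_cKO goblet-like class. Without them, Spink4 stood at 5344 CPM and Klk1 at 760 CPM in the Mettl14_cKO library, log2 ratios of -2.10 and -2.97 against -1.55 and -2.64 with them. The number of genes past 2-fold was again 2 upwards and 6 downwards.

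A further cluster bore on the result. Cluster 17, with 115 control and 399 Mettl14_cKO cells, had 9 of the 13 goblet markers raised but none among its 10 leading genes, which were headed by Trf, Slpi and Defb45, and it was left unnamed. In Mettl14_cKO cells of this cluster Sval1 stood at 2954 CPM, Zg16 at 5840 CPM and Mptx1 at 141 CPM, all above the Mettl14_cKO goblet-like class. In its control cells they stood at 170, 666 and 393 CPM. When clusters 7, 9 and 17 were added to the class, the log2 ratio was -0.95 for Sval1, -0.15 for Zg16 and -5.46 for Mptx1. The naming of clusters thus moved Sval1 and Zg16 more than any counting error.

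Over 17 alternative settings Retnlb stayed at least 2-fold higher and Mptx1 at least 2-fold lower in each. The log2 ratio of Mptx1 ranged from -8.23 to -2.04 and that of Retnlb from 1.03 to 2.19. Klk1 and Ang4 kept their direction in all 17, with log2 ratios from -3.12 to -0.70 and from -2.36 to -0.94. Fcgbp and Spink4 kept theirs in 16, and turned to -0.93 and 0.94 in clusters 0, 4 and 14 taken alone. Agr2, which differed little, kept its sign in 15. Sval1 and Clca1 turned, to 0.15 and 0.054, with the 10 genes kept among the variable genes. That setting gave 1866 control and 2431 Mettl14_cKO goblet-like cells. A cluster with 876 control cells, 433 of them from cluster 15, was left unnamed there and so fell outside the class. It held Zg16 at 21828 CPM, Sval1 at 8516 CPM and Clca1 at 758 CPM. The like Mettl14_cKO cluster of 221 cells and a smaller control one of 130 cells stayed in the class. The part of this in the turn was not tested. Zg16 was lower in 16 of the 17. Its log2 ratio ranged from -3.19 in clusters 0, 4 and 14, on 82 Mettl14_cKO UMIs, to 1.61 with the 10 genes kept. No direction was read for it.

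**Figure D3:**
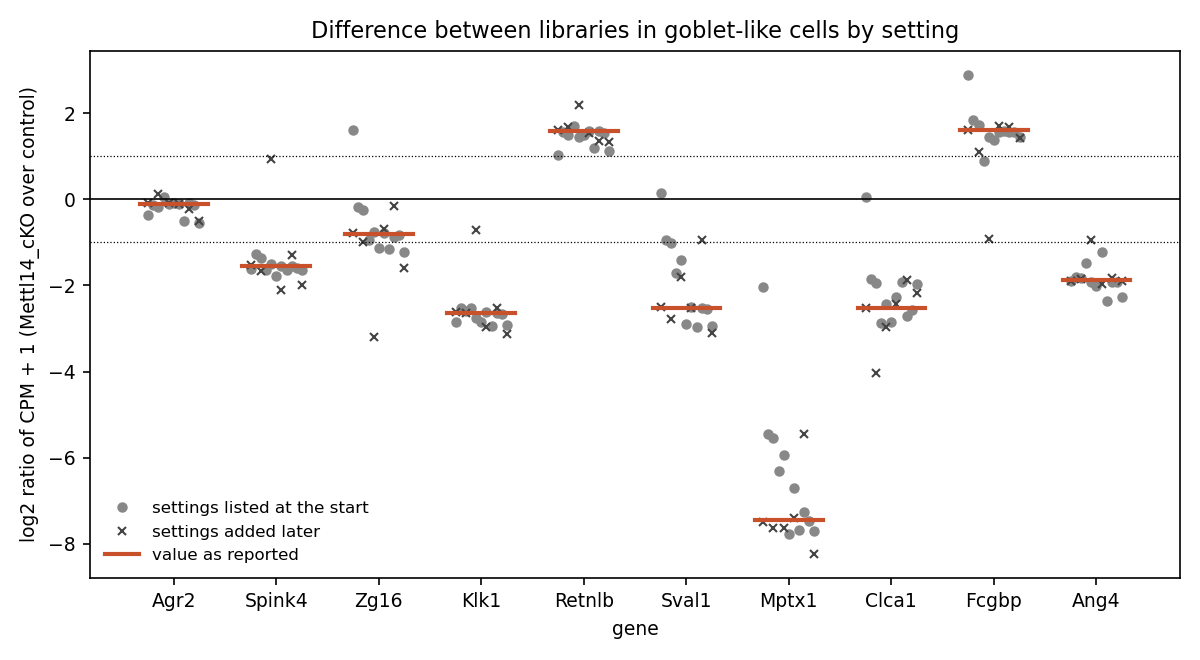
Log2 ratio of CPM + 1 between the libraries in goblet-like cells for each gene: the reported value (orange line), other settings listed at the start (circles) and those added after the data were seen (crosses). Dotted lines mark 2-fold. Retnlb lies above and Mptx1 below the dotted lines in every setting, whereas Zg16 spans -3.19 to 1.61.

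The genes were also counted in other cell classes. In the control, the goblet-like class ranked first of 7 classes for all 10. Its level was between 3.84 times (Fcgbp) and 6.15 times (Ang4) that of the other epithelial cells pooled. In the Mettl14_cKO library it ranked first of 9 classes for 8 of them. Sval1 was higher in the unnamed epithelial cells, at 1284 CPM, and Mptx1 stood behind 2 other classes. Klk1 was lower in the Mettl14_cKO library in cycling-like cells (1498 and 217 CPM), colonocyte-like cells (656 and 70.5 CPM) and enteroendocrine-like cells (1434 and 148 CPM). Mptx1 stood at 656 CPM in control cycling-like cells and at 0.930 CPM in those of the Mettl14_cKO library.

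Agr2 differed more between the libraries outside the goblet-like class than inside it. It was 2.64-fold lower in cycling-like cells (8541 and 3231 CPM), 2.92-fold lower in colonocyte-like cells and 6.27-fold lower in enteroendocrine-like cells of the Mettl14_cKO library. Retnlb, by contrast, stood at 991 CPM in control and 821 CPM in Mettl14_cKO cycling-like cells. Fcgbp was 2.46-fold higher in cycling-like cells (34.7 and 85.3 CPM) and 2.87-fold higher in colonocyte-like cells (72.6 and 208 CPM) of the Mettl14_cKO library. All these classes can hold goblet RNA from outside the cell, whose part in these values was not tested.

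T or NK-like cells, 367 control and 394 Mettl14_cKO cells with medians of 1651 and 1939.5 UMIs, do not make these proteins and served to gauge free RNA. They carried the genes at considerable levels. In the control they held 1984 CPM of Mptx1, 84.1% of the goblet-like CPM, though per cell this was 4.66 UMIs against 27.1. In the Mettl14_cKO library Clca1 stood at 66.8% of the goblet-like CPM, at 0.0635 UMIs per cell against 0.480, and Zg16 at 42.3%. For each of the others it was at most 23.1% there. Agr2 stood at 4788 CPM in control and 1255 CPM in Mettl14_cKO T or NK-like cells, and Zg16 at 1313 and 1488 CPM. The class lay in cluster 16, with 363 control and 177 Mettl14_cKO cells, and in cluster 21, with 4 and 217. In the class and in cluster 16 alone, Fcgbp and Retnlb were higher and Agr2, Spink4, Mptx1, Sval1 and Klk1 lower in the Mettl14_cKO library, as in goblet-like cells. Clca1 stood at 38.4 and 41.9 CPM in cluster 16, and Ang4 had 3 and 1 UMIs in the class. Mptx1 was 2.92 CPM and Klk1 130 CPM in Mettl14_cKO T or NK-like cells, against 1984 and 1124 CPM in those of the control.

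Much of that RNA lay in few barcodes. Without the 37 control cells with the largest share of these genes, 330 cells were left, and Mptx1 stood at 116 CPM in them, Agr2 at 1353 CPM and Zg16 at 247 CPM. In the Mettl14_cKO library 354 cells were left, with Mptx1 at 3.26 CPM, Retnlb at 158 CPM and Zg16 at 90.3 CPM. One barcode held 1001 of the 1712 Mptx1 UMIs of control T or NK-like cells. Subtracting the mean T or NK-like count per cell from the goblet-like cells moved the log2 ratio of Mptx1 from -7.44 to -7.27 and that of Clca1 from -2.53 to -2.70, and turned none of the 10. Control cluster 0 held 82.0 CPM of Mptx1 and the remaining T or NK-like cells 116 CPM, but per cell these were 1.30 and 0.242 UMIs, since cluster 0 had a median of 13772 UMIs. Over all control T or NK-like cells the value was 4.66 UMIs per cell, above that of cluster 0. The cells left out were picked by these same genes, so whether Mptx1 in cluster 0 exceeded free RNA cannot be told from these values.

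To compare shares of cells, each cell was thinned to 1500 UMIs, which left out 192 control and 173 Mettl14_cKO goblet-like cells; 136 control and 89 Mettl14_cKO cells of the T or NK-like class were also left out. At that depth 99.1% of control and 57.6% of Mettl14_cKO goblet-like cells had a Klk1 UMI, against 25.5% and 4.26% of T or NK-like cells. Unthinned, the goblet-like shares were 99.6% and 82.5%. For Spink4 the shares were 99.6% and 77.0%, with 83.5% and 28.5% in T or NK-like cells. Fcgbp was found in 11.7% of control and 43.0% of Mettl14_cKO goblet-like cells (27.8% and 74.3% unthinned), against 0.866% and 4.59% of T or NK-like cells. Retnlb was found in 50.02% and 67.5%, against 17.3% and 25.6%.

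The shares of Zg16, Mptx1 and Sval1 varied against those of T or NK-like cells. Zg16 was found in 20.9% of control and 24.8% of Mettl14_cKO goblet-like cells, against 31.2% and 14.8% of T or NK-like cells. Unthinned, the control shares were 52.3% and 39.5%, and the thinned means were 11.2 and 1.10 Zg16 UMIs per cell. Thinning takes more from the deeper goblet-like cells, so the share below that of T or NK-like cells was not read as a lower level. Mptx1 was found in 21.9% (20.5% to 23.4%) of control goblet-like cells and 16.9% (12.3% to 22.3%) of T or NK-like cells. By cluster, a Mptx1 UMI was found in 68.8% of cluster 15 and 35.0% of cluster 14, but in 8.89% of cluster 4 and 4.43% of cluster 0. The share of 1.69% in Mettl14_cKO goblet-like cells stood beside 0.656% (0.0795% to 2.35%) of T or NK-like cells. For Sval1 the shares, 39.5% and 21.2% in goblet-like cells, lay well above the 16.5% and 3.61% of T or NK-like cells. In the control this came from clusters 14 and 15, at 81.0% and 79.2%. Cluster 4 stood at 22.0% and cluster 0 at 15.5%, near the T or NK-like share.

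**Figure D4:**
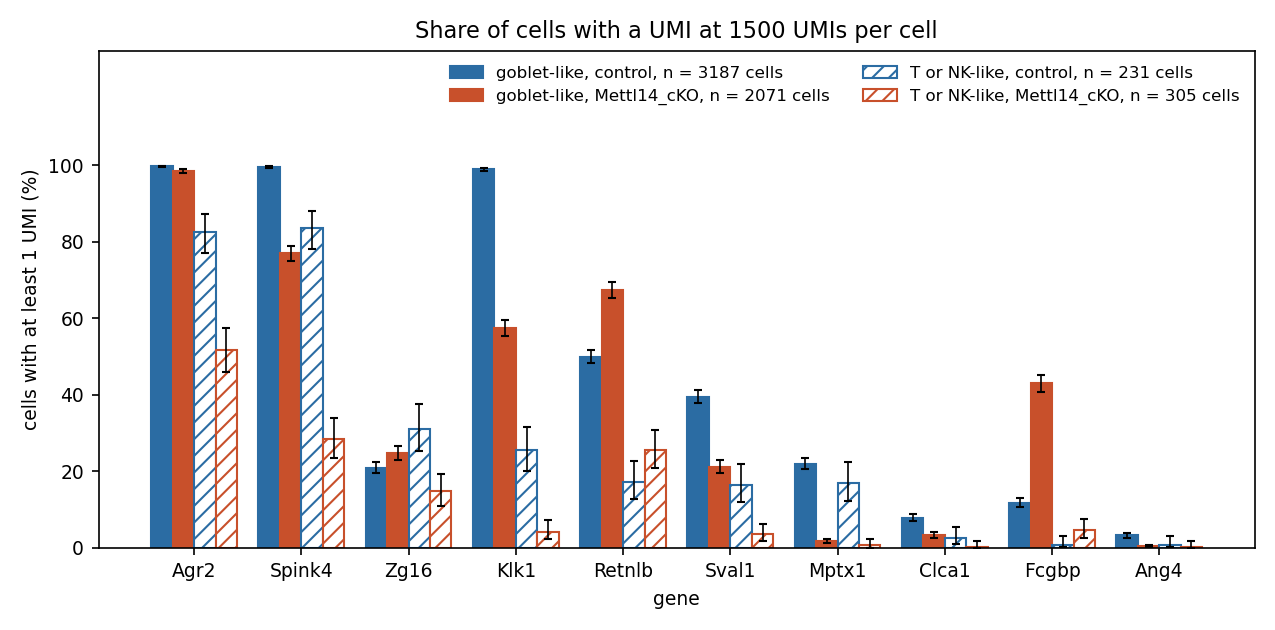
Percent of cells with at least 1 UMI of each gene after thinning every cell to 1500 UMIs, in goblet-like (filled) and T or NK-like (hatched) cells of the control (blue) and Mettl14_cKO (orange) libraries. Bars are exact 95% binomial intervals. Klk1 and Fcgbp separate the libraries most among goblet-like cells, at 99.1% against 57.6% and 11.7% against 43.0%, and the control Zg16 bar of goblet-like cells lies below that of T or NK-like cells.

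The genes also varied with each other over cells. In control goblet-like cells at 1500 UMIs, the largest Spearman correlations were 0.61 between Fcgbp and Clca1, 0.57 between Mptx1 and Sval1, 0.56 between Clca1 and Zg16 and 0.51 between Fcgbp and Zg16. Retnlb had negative values with Sval1 (-0.34) and Mptx1 (-0.29). In the Mettl14_cKO library Fcgbp and Zg16 stood at 0.39 and Fcgbp and Clca1 at 0.26. Mptx1 and Sval1 stood at 0.15 there, and Retnlb and Sval1 at 0.21. These values cover 3187 and 2071 cells that share 1 library each and 1 thinned depth, and they describe those cells only. For rare genes such as Ang4 and, in the Mettl14_cKO library, Mptx1, a value near 0 carries no information.

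**Figure D5:**
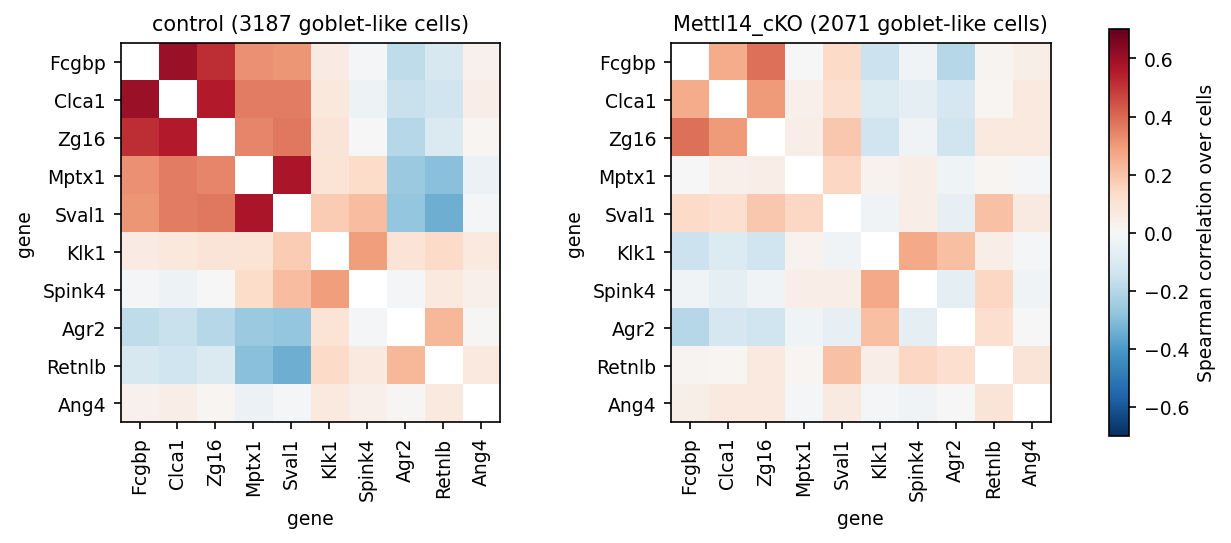
Spearman correlation over goblet-like cells thinned to 1500 UMIs between each pair of genes in the control (left) and Mettl14_cKO (right) library, with red above and blue below 0. In the control Fcgbp, Clca1 and Zg16 form a block with values from 0.51 to 0.61, and Mptx1 and Sval1 a pair at 0.57, which is at 0.15 in the Mettl14_cKO library.

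Over 32 pairs of cluster and library, the gene most like each of the 10 was sought by Pearson correlation of log2(CPM + 1) among 6020 genes. Agr2 was most like the goblet transcription factor Atoh1 (0.97), followed by Creb3l4 and Kdelr3. Fcgbp was most like the trefoil peptide Tff3 (0.88), then Capn9 and Fer1l6. Clca1 and Zg16 were most like each other (0.88), followed for Clca1 by Best2 and Sval1 and for Zg16 by Capn9 and Fcgbp. Sval1 was most like the anion channel Best2 (0.91), then Atp2c2 and Nov. Spink4 was most like Nov (0.94), then Atp2c2 and Cgref1. Klk1 was most like Gm1123 (0.96), then Pck1 and Creb3l4, and Retnlb most like A4gnt (0.88), then Bcas1 and 1810055G02Rik. Mptx1 was most like Ddx3y (0.80), a gene of the Y chromosome, then Klk1 (0.79) and B3gnt7, so the difference between the libraries weighs in its pattern. Ang4 had under 50 CPM in every pair and was not compared. The pairs share 2 libraries and cell types of unlike depth.

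Other genes of the goblet cell program were read in lists, against the same background of 6.01% and 6.25%. Of 10 goblet transcription factors, none was at least 2-fold higher and 2 were at least 2-fold lower: Creb3l1 at 262 and 109 CPM and Creb3l4 at 182 and 56.8 CPM, both membrane-bound factors of the endoplasmic reticulum. Atoh1, which sets the secretory fate, stood at 291 and 296 CPM, and Foxa3 at 301 and 299 CPM. Of 22 genes of folding in the endoplasmic reticulum, the chaperone Hspa5 was 2.22-fold higher, at 757 and 1681 CPM, and the disulfide isomerase Pdia4 stood at 119 and 192 CPM. Ddit3, a transcription factor of the stress response, was 4.87-fold lower, at 118 and 24.2 CPM, and Selenom 2.29-fold lower, at 1951 and 852 CPM. The list medians, as log2 ratios, were -0.53 for the transcription factors and 0.00 for the folding genes.

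Of 12 eligible genes of granule traffic, Nlrp6, an inflammasome sensor, was 3.72-fold lower, at 14.9 and 3.99 CPM, and Snap23, a fusion protein of exocytosis, was 2.07-fold lower, at 49.0 and 23.7 CPM. Vamp8 stood at 213 and 357 CPM and Sytl2 at 56.2 and 74.7 CPM. Of 13 genes of mucin-type O-glycosylation, the sialyltransferases St6galnac6 and St3gal6 were 2.97-fold and 2.56-fold lower. The core enzymes Gcnt3 and C1galt1 stood at 223 and 343 CPM and at 228 and 266 CPM. The list medians were -0.12 and -0.19. Of the 13 markers that named the class, the trefoil peptide Tff3 was 7.49-fold and the protease Capn9 2.05-fold higher. Muc2 was 2.51-fold lower, at 12851 and 5120 CPM, as were Creb3l1, above, and the tryptase Tpsg1, at 301 and 129 CPM, which is named here to complete the count. The other 8 were within 2-fold, and the list median was -0.21.

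Of 8 eligible genes of type 2 and interleukin-22 signalling, the antibacterial lectins Reg3g and Reg3b were 18.0-fold and 6.03-fold higher in Mettl14_cKO goblet-like cells, at 107 and 1926 CPM and at 149 and 900 CPM. The other 6 were within 2-fold, with Stat3 at 45.4 and 28.7 CPM and Stat6 at 10.2 and 8.83 CPM. In T or NK-like cells 34 Il22 UMIs were counted in the Mettl14_cKO library among 1027806 UMIs and 0 in the control among 862953, where a count of 0 allows up to 3. Of the 34, 32 lay in cluster 21, led by Trdc and Il17a, which held 4 control cells, and 2 in cluster 16, so the libraries are compared over different T cell clusters. Il13 and Il4 were counted 2 and 3 times in the Mettl14_cKO library and 0 times in the control. Of 4 genes linked to deep crypt secretory cells, Reg4 was 2.59-fold lower, at 695 and 268 CPM, and the other 3 were within 2-fold: Kit at 56.9 and 42.6 CPM, Dll4 at 14.5 and 10.8 CPM and Cd24a at 854 and 1148 CPM.

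Relatives of the 10 genes were read beside them, though few were counted often enough. Spink1, a Kazal-type inhibitor like Spink4, stood at 445 CPM in control and 13288 CPM in Mettl14_cKO goblet-like cells, 29.9-fold higher, while Spink4 was lower. Ang, a relative of Ang4, stood at 174 and 151 CPM, and Rnase4 at 446 and 551 CPM. Clca3b, like Clca1, was lower, by 2.07-fold, at 74.2 and 35.8 CPM. These were the 4 eligible genes of 38 relatives in the matrices. The remaining relatives were too rare to be read. Sval3, next in kind to Sval1, had 157 control and 219 Mettl14_cKO UMIs, and Agr3, the relative of Agr2, had 100 and 25. Retnla, Retnlg and Retn, relatives of Retnlb, had at most 25 UMIs in either library. Of the Clca family, Clca3a1 had 43 and 49, Clca3a2 91 and 57, Clca4a 22 and 29 and Clca4b 21 and 90. Mptx2, the nearest relative of Mptx1, had 0 UMIs in goblet-like cells of both libraries.

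The reads of some members can also fit a relative. In GENCODE M21 (GRCm38), stretches of 60 bases taken from the final 500 bases of each gene's transcripts were searched in all other genes. For Klk1 (ENSMUSG00000063903, chr7:44225360-44229618), 20.2% of them occurred in other kallikrein genes. Relatives of Klk1 with at least 10 UMIs were all rare beside its 230709 and 28219: Klk1b11 had 48 and 23 UMIs, Klk1b16 46 and 6, Klk1b4 33 and 14, Klk1b5 21 and 3, Klk1b3 20 and 2 and Klk1b21 17 and 3. For Fcgbp (ENSMUSG00000047730, chr7:28071236-28120862) the share was 15.2%, with 9530053A07Rik, and for Ang4 4.54%, with Ang5. For Mptx1 (ENSMUSG00000026531, chr1:174330518-174332873) it was 0.227%, with Mptx2. For the other 6 it was 0. How the counting treated reads that fit more than 1 gene is not stated in the labels or file headers.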

How the data were processed

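The deposited values are raw UMI counts of each gene in each barcode. Cell Ranger made them, with version 3.1.0 named in the file headers and 3.0.0, beside Seurat 3, in the submitters' processing notes. The sources used here name no genome build, annotation or kit end. Of the 31053 Ensembl IDs, 99.6% were in GENCODE M21 (GRCm38), used for coordinates, and promoters came from RefSeq (GRCm38.p6).

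Barcodes with fewer than 500 genes or 25% and more mitochondrial UMIs were dropped (1027 control, 2100 Mettl14_cKO). Scrublet in scanpy 1.11.5 then took out 77 and 53 cells scoring 0.25 or more, because its automatic threshold marked 0 and 1. Leiden clustering (resolution 1, 2000 variable genes, 30 components, 15 neighbours) of both libraries gave 27 clusters, without the 10 genes, mitochondrial, ribosomal protein, gasdermin and Y chromosome genes, Mettl14, Xist and Tsix. A class needed 70% of its markers, and at least 3, at 2-fold over the median cluster, and no other class with more markers among the 10 leading genes. Shallow clusters needed a marker among those 10, and clusters with Epcam at 50% of the median cluster could only be epithelial. These naming rules were set after the data were seen. No batch integration was done.

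Counts were summed per class and divided by its UMIs (CPM). Intervals are exact (Poisson for levels, binomial for shares, conditional binomial for ratios). Log2 ratios used CPM + 1. Eligible genes had at least 10 CPM in either library and 10 UMIs in all. The ratio and thinning scripts were tested on simulated data. The 10 genes, the lists and the tests were chosen with earlier results of these data known. All 10 genes were named, with the 2 highest and 2 lowest of each list, relatives with at least 10 UMIs, and the 3 genes most like each. Alternatives changed the cell filter, doublets, clustering, depth, free RNA, denominator, weighting and pseudocount. The scripts used leidenalg 0.10.2, pandas 2.3.3, scipy 1.17.1 and numpy 2.4.6 under Python 3.11.15, with matplotlib 3.10.9 for figures.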

Additional observations from a re-analysis of the deposited data

How the results depend on the processing

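The control-dominated and Mettl14_cKO-dominated goblet-like clusters limit every pooled ratio. There were 11 alternatives listed at the start and 6 added after the data were seen. The number of the 10 genes at least 2-fold higher was 1 in place of 2 with the strict cell filter, beside 6.395% of all eligible genes. That filter gave 1781 control and 1267 Mettl14_cKO goblet-like cells. It left unnamed a cluster with 921 control cells, with 12 of the 13 goblet markers raised. Another with 436 Mettl14_cKO cells and 11 raised was also left unnamed. The number was again 1 in clusters 0, 4 and 14 only, beside 0.854% of all eligible genes there. In these clusters the 10 genes held 8.46% of Mettl14_cKO UMIs in place of 4.85%. With a pseudocount of 10 CPM the background was 3.11% higher and 3.24% lower, in place of 6.01% and 6.25%. With the 10 genes among the variable genes the log2 ratio was 0.054 for Clca1 and 0.15 for Sval1, and the thinned share of Clca1 was 1.99 percentage points higher in the Mettl14_cKO library. That setting left a cluster with 876 control cells, 433 of them from cluster 15, unnamed and so outside the class. In clusters 0, 4 and 14 the log2 ratio was -0.93 for Fcgbp and 0.94 for Spink4. The thinned share of Zg16, 20.9% in control and 24.8% in Mettl14_cKO goblet-like cells, differed by -2.48 percentage points with the strict filter and by -1.16 unthinned. The cause was not tested. The number of genes at least 2-fold lower stayed within 1.5 times of 6 in every alternative. Ang4 rested on 238 UMIs in the Mettl14_cKO class. No paired analysis was possible because each genotype had 1 library.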
